A study of Mus musculus with 16 samples.

Results

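The interferon-stimulated genes described here are 41 genes that cells transcribe in answer to interferons. They were chosen by name from textbook antiviral and interferon-gamma targets, with earlier results of these data known. They were followed across the femurs of 16 mice. Of the 41 genes, 39 had at least 1 probe set of their own on the array, 58 probe sets in all, and 38 lay above the filter on low signal. The 38 are 23 type I antiviral genes, 4 transcription factors, 2 chemokines, 6 GTPases of the interferon-gamma response and 3 antigen processing genes, out of 12736 genes tested. Mx2 lay under the filter, with group means of 25.2 to 41.7 signal units, and Isg15 and Ifi44 were not analysed here because no probe set was assigned to them alone. All mice were female C57BL/6, and all had been ovariectomized, the controls included. The 4 groups of 4 mice were wild type with vehicle (WT-OVX), wild type with estrogen (WT-E2-4hr), mice lacking estrogen receptor alpha in osteoclasts without estrogen (ERaKO-OVX) and the same knockout with estrogen (ERaKO-E2-4hr). Estrogen was given 4 h before harvest. The labels of the ERaKO-OVX mice do not name a vehicle, which was taken from the series design text. The sources used here do not give the driver of the deletion, the age of the mice, or the compound and dose of estrogen. Each array carried unpooled RNA of 1 mouse, taken from the last 5 mm of the left femur at the knee end, so marrow, bone and adhering tissue were measured together.

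Interferons are secreted proteins that warn cells of viruses and other intruders. Type I interferons bind a receptor whose kinases activate STAT2, which joins IRF9 in a complex on the interferon-stimulated response element (ISRE) in front of antiviral genes. Interferon-gamma, released by T and NK cells, acts through a receptor of its own and the gamma-activated site (GAS), and turns on IRF1, large GTPases and the machinery that loads peptides on MHC class I. Many target genes answer both signals. In bone, interferons are known to restrain the formation of osteoclasts, the cells that resorb bone.

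The promoter windows of the members were searched for the core of the element. RefSeq promoter windows on GRCm38.p6, from 250 bases before to 50 bases after the start of the gene, matched 29 of the 38 members by symbol. The table held no window for Oas2, Zbp1, Dhx58, Parp14, Usp18, Iigp1, Parp9, Mx1 and Rtp4. The core of the ISRE, GAAA, then NN, then GAAA on either strand, was found in 15 of the 29 genes (51.7%), against 3.99% of all 27025 genes with a window and 3.44% of all windows of that length. It was present in 9 of 15 type I antiviral genes, 4 of 5 GTPases, 1 of 2 chemokines, 1 of 4 transcription factors and 0 of 3 antigen processing genes. The core of the GAS, TTCNNNGAA, which reads the same on both strands, was found in 9 of the 29 genes (31.0%) and in 9.55% of all genes, and 5 members held both. In Eif2ak2, Ifih1 and Ifitm3 the ISRE core was found only after the start. A match is a run of letters, not a measured binding site. A window without a match does not show that a gene lacks an element of another spelling or place. The 150 bases before the start of 4 members are printed 5′ to 3′, with each ISRE core in capitals. Ifit1 and Oas3 are type I antiviral genes, Gbp2 and Irgm1 are GTPases, and all of them share the core. The same stretch of Psmb9 follows as an antigen processing gene without a match. The stretches are chr19:34640739-34640888, plus strand for Ifit1, chr5:120777660-120777809, minus strand for Oas3, chr3:142620513-142620662, plus strand for Gbp2, chr11:48871421-48871570, minus strand for Irgm1 and chr17:34187331-34187480, minus strand for Psmb9.
Ifit1: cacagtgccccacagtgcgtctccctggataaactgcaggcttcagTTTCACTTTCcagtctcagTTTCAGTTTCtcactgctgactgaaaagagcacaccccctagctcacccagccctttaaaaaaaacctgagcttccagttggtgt
Oas3: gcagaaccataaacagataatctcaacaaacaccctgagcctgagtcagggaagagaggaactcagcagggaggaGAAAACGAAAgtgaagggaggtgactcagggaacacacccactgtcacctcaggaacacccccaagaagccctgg
Gbp2: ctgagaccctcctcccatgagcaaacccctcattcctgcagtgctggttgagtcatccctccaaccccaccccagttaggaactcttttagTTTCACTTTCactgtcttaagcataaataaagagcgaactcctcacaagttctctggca
Irgm1: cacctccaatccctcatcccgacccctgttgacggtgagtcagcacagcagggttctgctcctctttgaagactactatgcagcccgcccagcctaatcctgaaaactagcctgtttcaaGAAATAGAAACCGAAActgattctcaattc
Psmb9: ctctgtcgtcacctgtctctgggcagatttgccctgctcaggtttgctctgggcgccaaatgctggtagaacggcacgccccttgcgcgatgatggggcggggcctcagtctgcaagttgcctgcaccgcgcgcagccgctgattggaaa
In Ifit1 the cores begin 104 and 85 bases before the start, and in Irgm1 the overlapping cores begin 30 and 24 bases before it. The core of Gbp2 begins 59 and that of Oas3 75 bases before the start.

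Some properties of the arrays bear on every value. The deposited signals had a trimmed mean of 500 on each array and a median of 153 to 217. On 3 arrays, knockout estrogen replicate 1 and the second replicates of both wild-type groups, the bacterial spike-in signal was 19873 to 35480 against 5616 to 10287 on the other 13, and the 3′ over 5′ signal of Actb was 2.07 to 3.53, above that of every other array. Replicates 1 and 2 also stood apart from replicates 3 and 4: averaged over the groups, all 10 skeletal muscle markers stood lower in replicate pair 3 and 4 (median log2 difference −4.35), and all 10 osteoclast markers stood higher (median 0.95). Osteoclast and osteoblast markers were present on all arrays, with summed signals of at least 23734 and 58438. The brightest probe set of Esr1, which encodes the receptor, gave 945 ± 138 (SD, n = 4) in wild-type vehicle, 507 ± 106 in wild-type estrogen, 637 ± 60.9 in knockout vehicle and 540 ± 149 in knockout estrogen mice. Under vehicle this probe set did not overlap between genotypes, with 792 to 1100 in wild type and 580 to 723 in the knockout. A further probe set gave 175 to 197 and 89.1 to 104 there, and another overlapped, with 114 to 185 and 50.7 to 160. Other bone cells keep the gene, and its probes may lie outside the deleted part, so these values do not check the labels.

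Interferon-stimulated genes were highest in the knockout femurs that received no estrogen. For 36 of the 38 members (94.7%) the highest group mean was that of the knockout under vehicle, a group that holds the highest mean for 26.2% of all genes tested. After estrogen the knockout femurs stood lower for all 38 members, by a median of 0.62 on the log2(signal + 16) scale (range of differences −1.82 to −0.18), while the median over all 12736 genes was 0.01. In wild type the same contrast had a median of −0.10, with 25 members lower and 13 higher. By limma with Benjamini-Hochberg adjustment no gene passed an adjusted p of 0.05 in the knockout contrast (0% of 12736 genes), and the smallest adjusted p of a member was 0.970. Unadjusted p under 0.05 with a lower value was found for 26 of 38 members and for 3.22% of all genes, and with a higher value for 0 members and 1.66% of all genes. The 4 estrogen arrays lay below all 4 vehicle arrays for 9 members, namely Ifit2, Usp18, Oasl1, Ifih1, Rtp4, Irf7, Irf9, Cxcl10 and Psmb9, and for 2.86% of all genes. Members of 1 pathway vary together, so these counts are not counts of independent results. The list was also chosen with earlier results of these data known, so the shares are not an independent test. In whole bone, fewer cells of a type and less RNA per cell cannot be told apart.

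**Figure D1:**
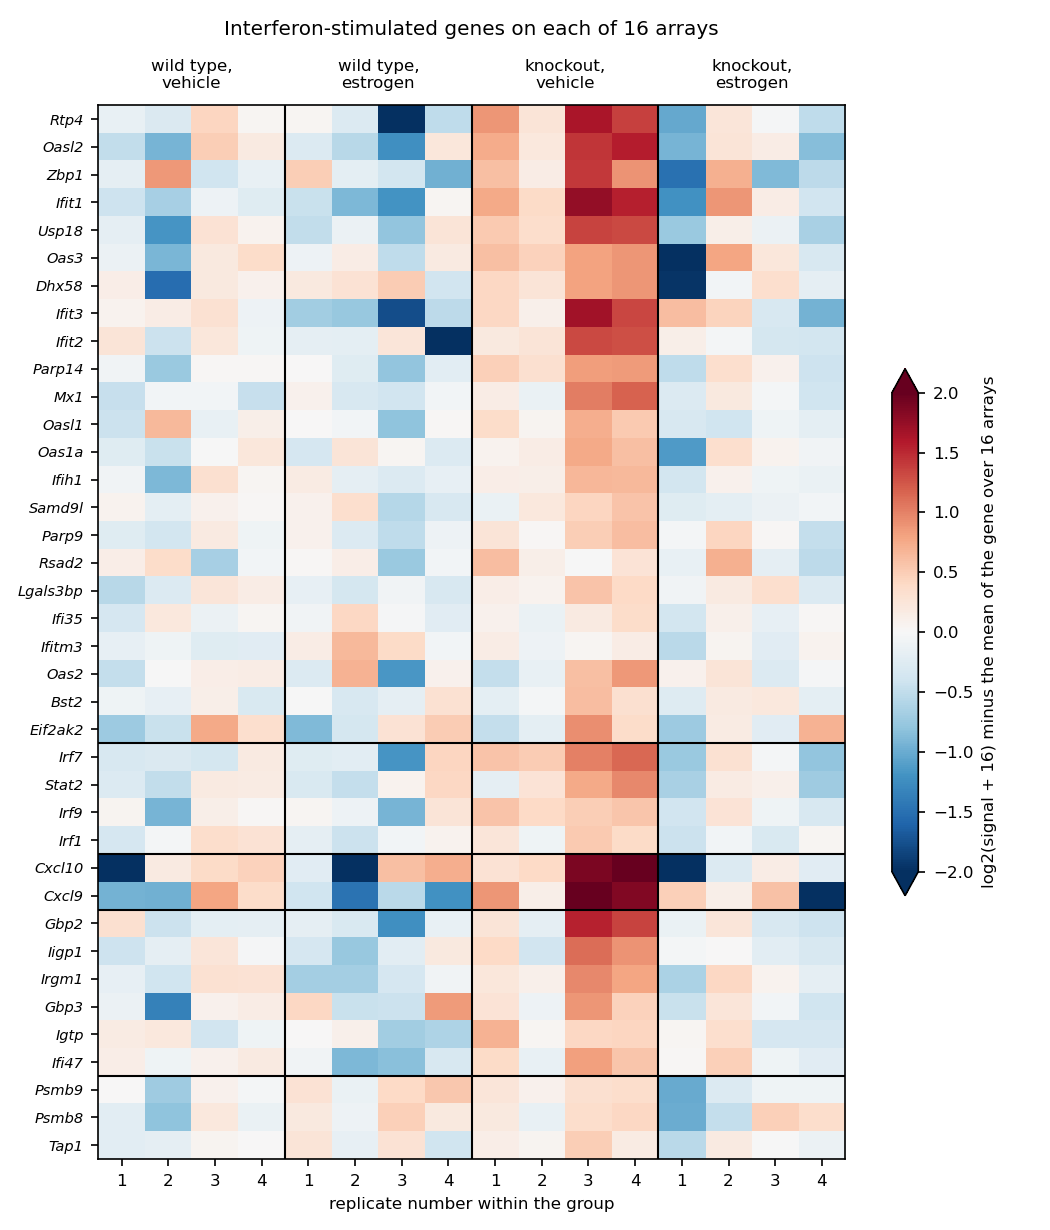
Each cell is the log2(signal + 16) of 1 gene on 1 of 16 arrays minus the mean of that gene over the arrays, with genes in rows by role and the 4 groups of 4 replicates in columns. Red cells gather in the knockout vehicle group, above all in replicates 3 and 4, which hold the highest array for 31 of the 38 genes.

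The high values were not spread evenly over that group. The mean deviation of the 38 members from their average over all arrays was 0.30, 0.10, 0.90 and 0.82 in knockout vehicle replicates 1 to 4. It was −0.58, 0.20, −0.04 and −0.34 in knockout estrogen mice, −0.24, −0.36, 0.11 and 0.05 in wild-type vehicle mice, and −0.10, −0.27, −0.44 and −0.10 in wild-type estrogen mice. Knockout vehicle replicates 3 and 4 therefore stood above every other array, and knockout estrogen replicate 2 stood above knockout vehicle replicate 2. Replicate 3 of the knockout vehicle group held the highest signal of all 16 arrays for 20 members and replicate 4 for 11, while the lowest signal lay in wild-type estrogen replicate 3 for 12 members and in knockout estrogen replicate 1 for 11. Without knockout vehicle replicate 3 the count of members with unadjusted p under 0.05 went from 26 to 10, without replicate 4 also to 10, without knockout estrogen replicate 1 to 14 and without knockout estrogen replicate 4 to 15. The median difference was then −0.50, −0.52, −0.49 and −0.58. The share of all genes at that p in these fits is not given, so the falls in count are not shown to be particular to the members.

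**Figure D2:**
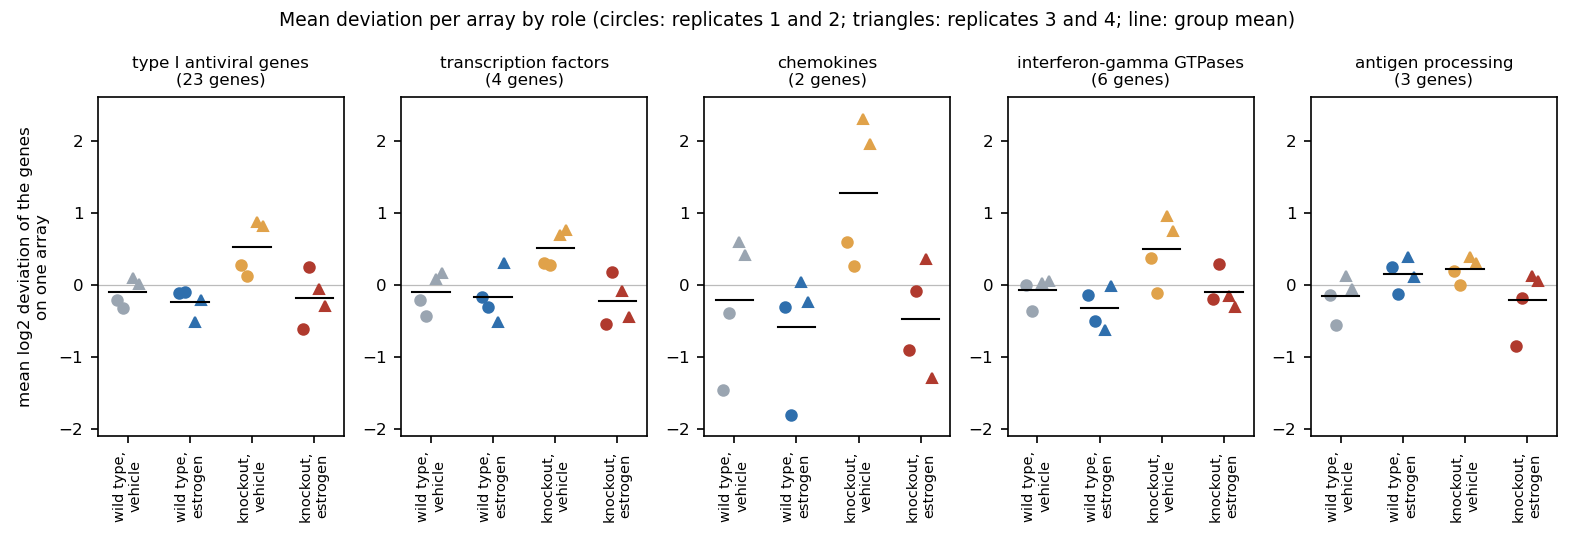
Mean log2 deviation of the genes of each role on each array, with circles for replicates 1 and 2, triangles for replicates 3 and 4, and a line at the mean of the 4 arrays. The triangles of the knockout vehicle group lie highest for the antiviral genes, transcription factors, chemokines and GTPases, and the antigen processing genes are also high in wild type after estrogen.

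All 4 transcription factors of the pathway were lower after estrogen in the knockout, without overlap between those groups for Irf7 and Irf9. Irf7, which amplifies type I interferon production, had signals of 895, 924, 877 and 1281 in wild-type vehicle mice, 948, 971, 489 and 1525 in wild-type estrogen mice, 1687, 1617, 2289 and 2504 in knockout vehicle mice and 667, 1399, 1090 and 647 in knockout estrogen mice. Every knockout vehicle array lay above the other 12 arrays. The estrogen difference of Irf7 was −1.13 ± 0.30 (SE) in the knockout (limma adjusted p = 0.970) and −0.11 ± 0.30 in wild type, and knockout minus wild type under vehicle was 1.01 ± 0.30.

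Irf9, the DNA-binding partner of STAT2, had signals of 1199, 596, 1251 and 1169 in wild-type vehicle mice, 1180, 1070, 597 and 1382 in wild-type estrogen mice, 1708, 1528, 1617 and 1699 in knockout vehicle mice and 877, 1390, 1080 and 916 in knockout estrogen mice. The knockout vehicle arrays again lay above all others, here with close values in the replicate sets. Stat2 had signals of 222, 188, 310 and 304 in wild-type vehicle, 216, 191, 286 and 367 in wild-type estrogen, 236, 331, 471 and 540 in knockout vehicle and 167, 305, 293 and 159 in knockout estrogen mice. The Stat2 groups overlapped, with replicates 3 and 4 above replicates 1 and 2 in all but the knockout after estrogen. Their estrogen differences in the knockout were −0.63 ± 0.26 for Irf9 and −0.72 ± 0.30 for Stat2.

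Irf1, a factor induced by interferon-gamma that also drives class I presentation genes, differed less. Its signals were 1207, 1480, 1950 and 1855 in wild-type vehicle mice, 1343, 1122, 1457 and 1597 in wild-type estrogen mice, 1808, 1433, 2196 and 1978 in knockout vehicle mice and 1128, 1465, 1233 and 1569 in knockout estrogen mice. The ranges overlapped in every contrast. The estrogen difference was −0.45 ± 0.18 in the knockout and −0.22 ± 0.18 in wild type. All 4 transcription factors were lower at an unadjusted p under 0.05 in the knockout, against 3.22% of all genes, with a median of −0.68. In wild type 0 of 4 had such a p, with a median of −0.05.

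**Figure D3:**
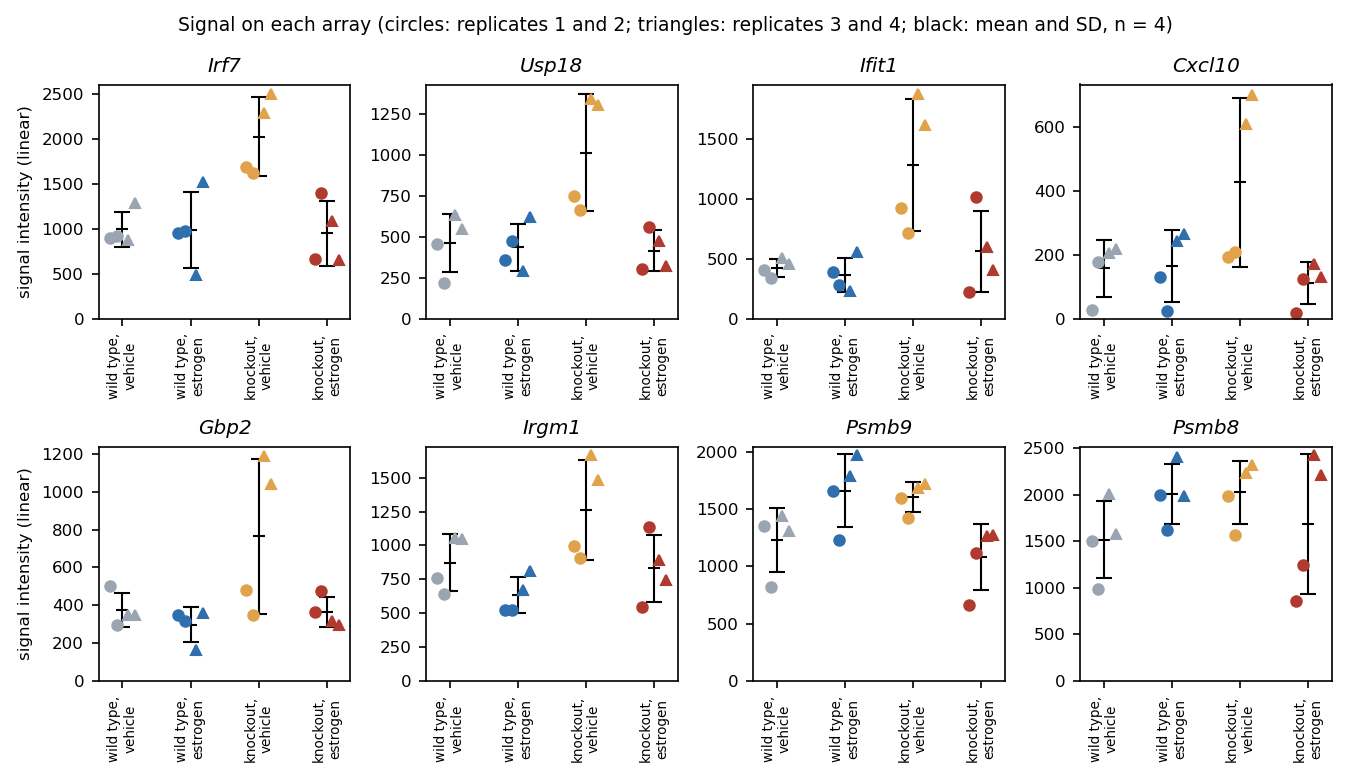
Signal intensity on each array for 8 members on a linear axis from 0, with circles for replicates 1 and 2, triangles for replicates 3 and 4, and the mean and SD of 4 arrays in black. Irf7 and Usp18 are higher in all 4 knockout vehicle arrays than elsewhere, the high Gbp2 values lie in replicates 3 and 4 of that group, and Psmb9 is also high in wild type after estrogen.

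Among the type I antiviral genes, 23 of 23 were lower after estrogen in the knockout, with a median of −0.67. At an unadjusted p under 0.05, 15 were lower, against 3.22% of all genes. Usp18, a protease that removes ISG15 from proteins and dampens the interferon receptor, had signals of 454, 219, 633 and 546 in wild type under vehicle and 361, 473, 292 and 621 after estrogen. In the knockout it had 749, 665, 1342 and 1308 under vehicle and 302, 561, 477 and 323 after estrogen. As for Irf7, the knockout vehicle arrays were the 4 highest of 16. The knockout difference was −1.23 ± 0.33 (limma adjusted p = 0.970), a 2.35-fold lower value, against −0.04 ± 0.33 in wild type. With 1 array left out the wild-type value was −0.35 to 0.14, with −0.35 found without wild-type vehicle replicate 2, and −0.40 without the 3 arrays of high spike-in.

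Rtp4, a chaperone of receptor transport that is induced by interferon, had signals of 1122, 1010, 1668 and 1270, then 1272, 1022, 276 and 865 in the vehicle and the estrogen mice of wild type. In the knockout the signals were 2287, 1492, 3861 and 3227 under vehicle and 604, 1465, 1216 and 865 after estrogen. The knockout groups did not overlap, and the lowest Rtp4 value of all came from wild type after estrogen. Oasl2, a relative of the oligoadenylate synthetases that sense viral RNA, had signals of 655, 483, 1319 and 1055 in wild-type vehicle, 772, 628, 388 and 1099 in wild-type estrogen, 1572, 1086, 2533 and 2789 in knockout vehicle and 482, 1120, 1041 and 508 in knockout estrogen mice. Knockout estrogen replicate 2 slightly exceeded knockout vehicle replicate 2. The knockout differences were −1.36 ± 0.41 for Rtp4 and −1.33 ± 0.40 for Oasl2, and those in wild type were −0.72 ± 0.41 and −0.27 ± 0.40. The wild-type values rest on few arrays: with 1 array left out they were −0.97 to −0.26 for Rtp4 and −0.51 to −0.01 for Oasl2, with the value nearest 0 without wild-type estrogen replicate 3 for both.

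Ifit1, which binds viral RNA that lacks the host cap, carries 2 ISRE cores in the stretch printed above. Its signals were 402, 335, 502 and 454 in wild-type vehicle mice, 391, 283, 227 and 555 in wild-type estrogen mice, 919, 711, 1871 and 1619 in knockout vehicle mice and 223, 1011, 601 and 409 in knockout estrogen mice. All 4 knockout vehicle arrays lay above all 8 wild-type arrays, and knockout estrogen replicate 2 lay among them. The difference between genotypes under vehicle was 1.47 ± 0.39, and the estrogen difference was −1.26 ± 0.39 in the knockout and −0.27 ± 0.39 in wild type.

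Parp14, an enzyme that adds ADP-ribose to proteins, had signals of 698, 433, 750 and 749 in wild-type vehicle, 743, 618, 421 and 632 in wild-type estrogen, 1033, 922, 1329 and 1341 in knockout vehicle and 512, 932, 784 and 547 in knockout estrogen mice. Only knockout estrogen replicate 2 reached the knockout vehicle range. Zbp1, a sensor of nucleic acids that can start cell death, had signals of 189, 406, 161 and 193 in wild-type vehicle, 311, 187, 164 and 103 in wild-type estrogen, 338, 241, 606 and 419 in knockout vehicle and 66.8, 364, 111 and 146 in knockout estrogen mice. Its groups overlapped in every contrast. The knockout differences were −0.75 ± 0.23 for Parp14 and −1.31 ± 0.44 for Zbp1.

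The other antiviral members ranged widely. Among the cytosolic RNA sensors, Dhx58 differed after estrogen in the knockout by −1.06 ± 0.44 and Ifih1 by −0.51 ± 0.22. Among the oligoadenylate synthetases, which activate an RNase against viral RNA, Oas3 differed by −1.19 ± 0.52, Oas1a by −0.59 ± 0.27 and Oas2 by −0.20 ± 0.34, and their relative Oasl1 by −0.67 ± 0.24. Without knockout estrogen replicate 1, an array of high spike-in signal, the difference of Oas3 was −0.46, that of Dhx58 −0.56 and that of Oas1a −0.28. The relatives of Ifit1, Ifit2 and Ifit3, differed by −0.93 ± 0.43 and −0.93 ± 0.38, and the GTPase Mx1 by −0.68 ± 0.29.

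Other antiviral genes differed by less in the knockout. Rsad2, the radical enzyme viperin, differed by −0.29 ± 0.28, the membrane protein Ifitm3, which blocks viral entry, by −0.22 ± 0.17, and Ifi35 by −0.23 ± 0.17. The kinase Eif2ak2, which stops translation on double-stranded RNA, differed by −0.18 ± 0.40, the tether of budding virions Bst2 by −0.19 ± 0.19 and the secreted glycoprotein Lgals3bp by −0.25 ± 0.19. Parp9, a partner of ADP-ribosylating enzymes, differed by −0.37 ± 0.20 and the restriction factor Samd9l by −0.42 ± 0.19. The difference of Oas2 was 0.02 without knockout vehicle replicate 4, and that of Eif2ak2 was 0.07 without knockout vehicle replicate 3 and 0.05 without knockout estrogen replicate 1, so their sign rests on single arrays.

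The chemokines of the list, ligands of CXCR3 that attract T and NK cells, had the most negative fitted differences in the knockout, from low signals. Cxcl9 had signals of 60.2, 59.2, 238 and 174 in wild-type vehicle mice, 94.9, 36.6, 85.0 and 47.3 in wild-type estrogen mice, 255, 143, 949 and 511 in knockout vehicle mice and 188, 143, 203 and 12.6 in knockout estrogen mice. Cxcl10 had signals of 26.8, 177, 207 and 218 in wild-type vehicle, 130, 22.5, 244 and 266 in wild-type estrogen, 192, 209, 611 and 701 in knockout vehicle and 18.6, 125, 172 and 130 in knockout estrogen mice. For Cxcl9, knockout vehicle replicate 2 lay below knockout estrogen replicates 1 and 3, and for Cxcl10 the knockout groups did not overlap. The estrogen difference in the knockout was −1.69 ± 0.66 for Cxcl9 and −1.82 ± 0.72 for Cxcl10, against −0.72 ± 0.66 and −0.02 ± 0.72 in wild type. In replicates 1 and 2 the Cxcl9 difference was −0.21 and in replicates 3 and 4 it was −3.17. Without knockout estrogen replicate 4, whose Cxcl9 signal was 12.6, the Cxcl9 difference was −1.0, nearer 0 than those of Rtp4 and Oasl2 over all arrays. For Cxcl10 replicates 1 and 2 gave −1.63 and replicates 3 and 4 gave −2.02.

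The interferon-gamma GTPases, which attack the vacuoles of intracellular microbes, were lower after estrogen in the knockout in 6 of 6 genes, with a median of −0.57. At an unadjusted p under 0.05, 4 of 6 were lower, against 3.22% of all genes. Gbp2 had signals of 503, 293, 347 and 350 in wild-type vehicle, 349, 318, 161 and 356 in wild-type estrogen, 482, 351, 1187 and 1038 in knockout vehicle and 363, 475, 318 and 295 in knockout estrogen mice. The high values were those of knockout vehicle replicates 3 and 4, and the first pair of replicates showed no such level. The Gbp2 difference in the knockout was −0.90 ± 0.34 over all arrays, 0.014 in replicates 1 and 2 and −1.81 in replicates 3 and 4.

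Irgm1 had signals of 761, 638, 1052 and 1045 in wild-type vehicle, 527, 527, 669 and 808 in wild-type estrogen, 994, 909, 1671 and 1481 in knockout vehicle and 545, 1135, 893 and 747 in knockout estrogen mice. Iigp1 had signals of 656, 772, 1040 and 863 in wild-type vehicle, 691, 509, 752 and 1008 in wild-type estrogen, 1156, 667, 1914 and 1639 in knockout vehicle and 852, 883, 754 and 699 in knockout estrogen mice. Both had their highest arrays in knockout vehicle replicates 3 and 4 and overlapped between groups through replicates 1 and 2. The knockout differences were −0.60 ± 0.25 for Irgm1, −0.64 ± 0.27 for Iigp1, −0.54 ± 0.35 for Gbp3, −0.47 ± 0.22 for Igtp and −0.36 ± 0.22 for Ifi47.

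The antigen processing genes stood high both in knockout vehicle and in wild-type estrogen mice; the knockout vehicle mean was the highest for Psmb8 and Tap1, and the wild-type estrogen mean for Psmb9. Psmb9, an immunoproteasome subunit that cuts peptides for MHC class I, had signals of 1350, 817, 1436 and 1309 in wild-type vehicle mice, 1657, 1227, 1786 and 1972 in wild-type estrogen mice, 1600, 1423, 1684 and 1715 in knockout vehicle mice and 659, 1115, 1268 and 1272 in knockout estrogen mice. The knockout estrogen arrays lay below all knockout vehicle arrays, while the other groups overlapped. The estrogen difference was −0.61 ± 0.22 in the knockout and 0.44 ± 0.22 in wild type, and the responses differed by −1.05 ± 0.31 (limma adjusted p = 0.637). Without knockout estrogen replicate 1 the knockout difference of Psmb9 was −0.39, and without wild-type vehicle replicate 2 the wild-type difference was 0.26; both are arrays of high spike-in signal.

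Psmb8, the second immunoproteasome subunit of the list, had signals of 1501, 991, 2003 and 1580 in wild-type vehicle, 2001, 1625, 2411 and 1988 in wild-type estrogen, 1992, 1563, 2228 and 2320 in knockout vehicle and 863, 1245, 2424 and 2211 in knockout estrogen mice. Its low values after estrogen in the knockout were those of replicates 1 and 2, where the difference was −0.76, while replicates 3 and 4 gave 0.03. Tap1, a subunit of the peptide transporter, had signals of 1210, 1237, 1461 and 1402 in wild-type vehicle, 1667, 1249, 1714 and 1056 in wild-type estrogen, 1530, 1456, 1978 and 1562 in knockout vehicle and 961, 1585, 1389 and 1282 in knockout estrogen mice. The Tap1 differences were −0.33 ± 0.18 in the knockout and 0.07 ± 0.18 in wild type.

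Set side by side, the type I antiviral genes had medians of −0.67 in the knockout and −0.10 in wild type, the GTPases −0.57 and −0.32, and the antigen processing genes −0.37 and 0.43. Knockout minus wild type under vehicle had medians of 0.54, 0.55 and 0.41 in these 3 roles, and under estrogen 0.04, 0.27 and −0.35. The GTPases and the antigen processing genes thus stood on opposite sides of 0 after estrogen in wild type, with 5 of 6 lower and 3 of 3 higher. Without knockout estrogen replicate 1 the antigen processing median was −0.19 in the knockout and −0.08 between genotypes under estrogen, and without replicate 3 these were −0.58 and −0.57. Without wild-type vehicle replicate 2 it was 0.24 in wild type and 0.25 between genotypes under vehicle. Without wild-type estrogen replicate 3 the wild-type median was −0.18 for the GTPases and 0.04 for the type I antiviral genes, so the sign of the latter turned. The genotype medians under estrogen were then 0.13 for the GTPases and −0.08 for the type I antiviral genes, and that of the GTPases was 0.14 without knockout estrogen replicate 2. The lists were not tested against each other, and the estrogen contrast in the knockout shares its vehicle arrays with the genotype contrast.

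**Figure D4:**
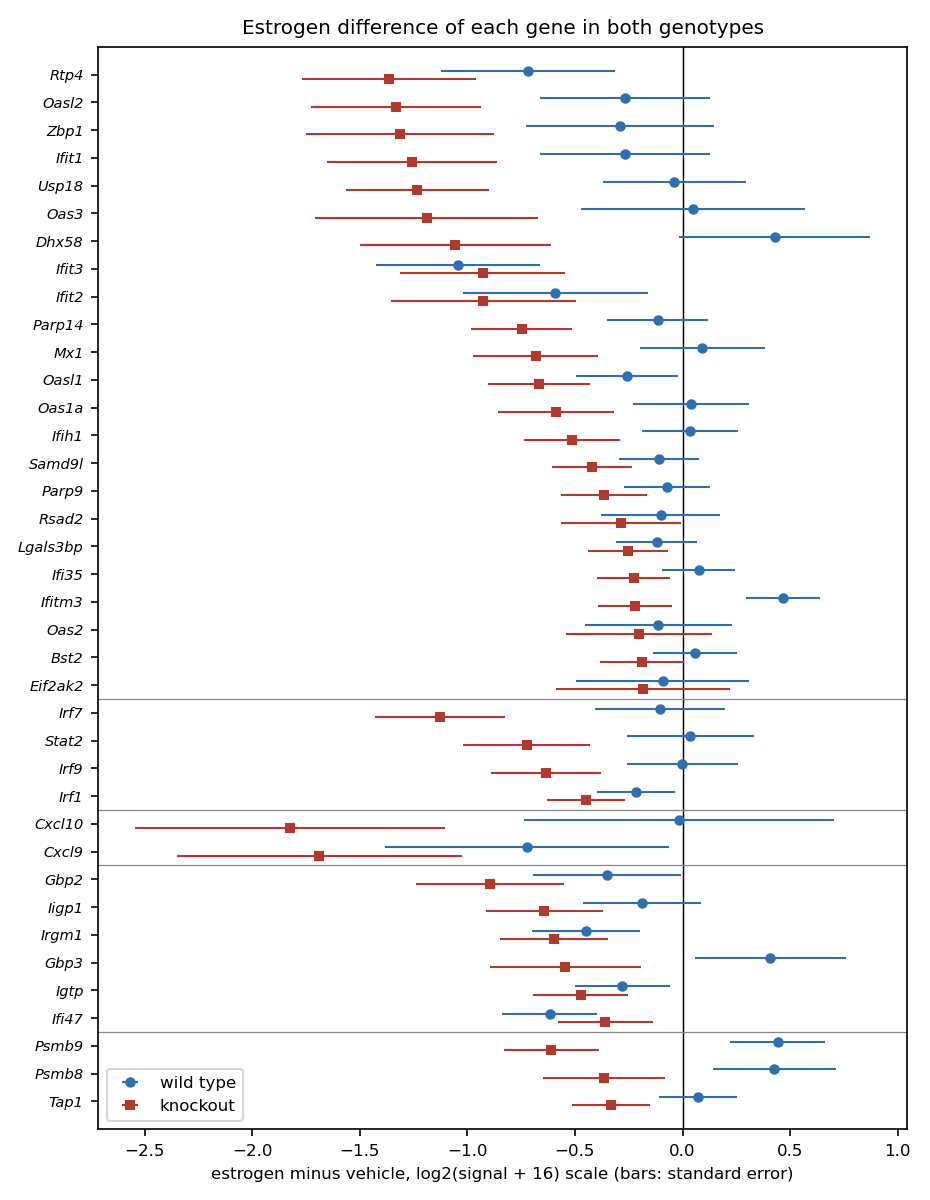
Estrogen minus vehicle on the log2(signal + 16) scale for each of the 38 genes, with wild type as circles, the knockout as squares, the standard error as bars and lines between the roles. All knockout values lie below 0, from −1.82 for Cxcl10 to −0.18 for Eif2ak2, and the wild-type values lie on both sides of 0.

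Estrogen in wild type, the second contrast, gave 0 genes at an adjusted p under 0.05 (0% of 12736 genes). Of the members, 2 were lower at an unadjusted p under 0.05, against 4.77% of all genes, and 1 was higher, against 3.88%; the member shares are near that background. Ifit3 differed by −1.04 ± 0.38, from 371 to 496 under vehicle to 105 to 274 after estrogen, without overlap. The GTPase Ifi47 differed by −0.62 ± 0.22, and Ifitm3 by 0.47 ± 0.17. Ifit3 and Ifi47 were the members whose difference was more negative in wild type than in the knockout.

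Knockout against wild type under vehicle compared the genotypes without estrogen. All 38 members were higher in the knockout, by a median of 0.55 (range 0.17 to 1.58) against 0.00 over all genes. No gene passed an adjusted p of 0.05 (0% of 12736 genes), and the smallest adjusted p of a member was 0.950. An unadjusted p under 0.05 with a higher value was found for 14 of 38 members and 2.13% of all genes, and with a lower value for 0 members and 1.42% of all genes. The knockout arrays lay above all wild-type arrays for 7 members, Ifit1, Usp18, Oas3, Dhx58, Parp14, Irf7 and Irf9, and for 2.22% of all genes. The largest differences were 1.58 ± 0.66 for Cxcl9, 1.47 ± 0.39 for Ifit1, 1.40 ± 0.72 for Cxcl10 and 1.18 ± 0.40 for Oasl2. Blocked on the replicate number, 21 members had an unadjusted p under 0.05 and 0 passed the adjustment. In the same fit 2.87% of all genes were higher at that unadjusted p. With the replicate set as a term there were 23 members, against 3.21% of all genes. Without knockout vehicle replicate 3 or replicate 4 the unblocked count went from 14 to 6 in each case, and without wild-type vehicle replicate 2 to 8. The share of all genes in these last fits is not given.

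Under estrogen the genotypes differed little in these genes: 18 members were lower and 20 higher in the knockout, with a median of 0.04. No gene passed the adjusted p (0% of 12736 genes). At an unadjusted p under 0.05, 2 members were lower, Psmb9 (−0.64 ± 0.22) and Ifitm3 (−0.45 ± 0.17), against 3.16% of all genes, and 2 were higher, Ifit3 (0.89 ± 0.38) and Ifi47 (0.58 ± 0.22), against 3.54%. The sign of the median turned without wild-type estrogen replicate 3 (−0.08), knockout estrogen replicate 2 (−0.07) or knockout estrogen replicate 3 (−0.01).

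The difference between the estrogen responses, knockout minus wild type, tests directly whether the genotypes responded unlike each other. It was negative for 36 of 38 members, with a median of −0.59 against 0.01 over all genes, and positive for Ifit3 (0.11 ± 0.54) and Ifi47 (0.26 ± 0.31). No gene passed the adjusted p (0% of 12736 genes). At an unadjusted p under 0.05, 5 members were lower, against 3.74% of all genes, and 0 higher, against 3.87%. The 5 were Psmb9, Ifitm3 (−0.69 ± 0.24), Usp18 (−1.19 ± 0.47), Irf7 (−1.02 ± 0.43) and Dhx58 (−1.48 ± 0.63). That count was 3 without knockout vehicle replicate 3, knockout vehicle replicate 4 or knockout estrogen replicate 1, 9 without wild-type estrogen replicate 3, and 11 without knockout vehicle replicate 2 or knockout estrogen replicate 2. The share of all genes in these fits is not given. With the 3 arrays of high spike-in signal left out the median was −0.28. Dhx58 had its lowest signals on such arrays, 109 in wild-type vehicle replicate 2 and 75.9 in knockout estrogen replicate 1. A further probe set of Dhx58 gave −0.06 ± 0.41 for the difference between responses.

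The replicate sets differed in how large the contrasts were. In replicates 1 and 2 the estrogen difference in the knockout had a member median of −0.27, with 31 of 38 lower, and in replicates 3 and 4 it was −0.87, with 37 of 38 lower. The GTPases had medians of −0.10 and −0.92 in the sets, the type I antiviral genes −0.27 and −0.79, and the antigen processing genes −0.76 and −0.39. In wild type the member median was 0.12 in replicates 1 and 2 and −0.39 in replicates 3 and 4. The genotype difference under vehicle was 0.43 and 0.59, and the difference between responses −0.47 and −0.47. Whether the sets differ in these contrasts was not tested.

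The members themselves also differed between the sets, averaged over groups. Of 38 members, 33 were higher in replicates 3 and 4, with a median of 0.21, against 6840 of 12736 genes and a median of 0.03. Higher signals in replicates 3 and 4 passed an adjusted p of 0.05 by limma for 6 of 38 members, against 9.18% of all genes. The members were not tested against all genes. The 6 were Cxcl10 (1.51 ± 0.34), Eif2ak2 (0.91 ± 0.17), Psmb8 (0.58 ± 0.14), Irgm1 (0.45 ± 0.14), Psmb9 (0.37 ± 0.13) and Irf1 (0.32 ± 0.10). Rsad2 (−0.49 ± 0.15) and Igtp (−0.41 ± 0.12) were lower there, 2 of 38 members against 9.38% of all genes.

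Other genes of the pathway were followed by lists. Of 11 interferon ligands, receptors, kinases and their inhibitors, 7 were lower and 4 higher after estrogen in the knockout, with a median of −0.12 and 0 at an unadjusted p under 0.05 in any of the 5 contrasts. Of 14 genes of nucleic acid sensing, 8 were lower, with a median of −0.03. At an unadjusted p under 0.05, 1 was lower, against 3.22% of all genes. It was Irf2 (−0.60 ± 0.24), a repressor of interferon targets. In wild type the kinase Ikbke, which activates IRF3 and IRF7, differed by 1.81 ± 0.34 (limma adjusted p = 0.124), and the adaptor Myd88 by 0.77 ± 0.26.

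Interferon targets outside the member list were also counted. Of 23 other antiviral targets, 21 were lower after estrogen in the knockout, with a median of −0.56. At an unadjusted p under 0.05, 9 were lower, against 3.22% of all genes. Under vehicle, 22 of the 23 were higher in the knockout than in wild type, with a median of 0.51. The nucleotide kinase Cmpk2, a neighbour in function of Rsad2, differed by −1.03 ± 0.27 in the knockout and −0.17 ± 0.27 in wild type. Under vehicle, the conjugating enzyme for ISG15, Ube2l6, differed between genotypes by 0.93 ± 0.27 and the RNA-editing enzyme Adar by 0.51 ± 0.14. Of 13 other interferon-gamma and class I genes, 12 were lower after estrogen in the knockout, with a median of −0.41. At an unadjusted p under 0.05, 4 were lower, against 3.22% of all genes. All 13 had a negative difference between responses, with 5 at an unadjusted p under 0.05, against 3.74% of all genes. Cd274, which encodes the checkpoint ligand PD-L1, differed by −0.98 ± 0.26 in the knockout and 0.65 ± 0.26 in wild type, and the responses differed by −1.63 ± 0.37 (limma adjusted p = 0.637). The peptide transporter subunit Tap2 differed by 0.96 ± 0.30 in wild type and by 0.06 ± 0.30 in the knockout. The GTPase Gbp7 differed by 0.03 ± 0.17 and −0.49 ± 0.17, in that order.

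Markers of the cells in the sample moved with some of these contrasts. Of 7 T lymphocyte and NK cell markers tested, 6 were lower after estrogen in the knockout, with a median of −0.28, and 6 were higher in the knockout than in wild type under vehicle, with a median of 0.31. Their summed signal was 3321 to 4576 in knockout vehicle, 2053 to 4498 in knockout estrogen, 2705 to 3485 in wild-type vehicle and 3519 to 4736 in wild-type estrogen mice. Of 6 plasmacytoid dendritic cell markers, 5 were lower after estrogen in the knockout (median −0.26; summed signal 2824 to 5566 under vehicle and 2810 to 4291 after estrogen), and 4 of 6 in wild type (median −0.27; 3208 to 4250 and 1892 to 4046). Of 7 B lymphocyte markers, 6 were lower after estrogen in the knockout and 7 in wild type, with medians of −0.59 and −0.55. The 8 monocyte and macrophage markers had medians of 0.06 and 0.01. The 10 neutrophil lineage markers were higher after estrogen in wild type in 8 of 10 genes, with a median of 0.31. Under estrogen they were lower in the knockout than in wild type in 10 of 10, with a median of −0.39. Psmb9 and Ifitm3 differed in the same directions in these contrasts. After estrogen in the knockout 9 of 10 markers were higher, with a median of 0.18, while Psmb9 (−0.61) and Ifitm3 (−0.22) were lower. Wild-type estrogen replicate 2, an array of high spike-in signal, had a mean marker deviation of 1.18. Replicates 1, 3 and 4 of that group had 0.13, 0.13 and −0.02. The part of these cells in the member values was not tested.

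Muscle moved against the members in the knockout after estrogen, between genotypes under vehicle and in the difference between responses, but not in wild type. The 10 skeletal muscle markers were higher after estrogen in the knockout in 10 of 10 genes, with a median of 1.13, and lower in the knockout than in wild type under vehicle in 10 of 10, with a median of −1.46. The difference between responses was positive in 10 of 10, with a median of 2.01. After estrogen in wild type 9 of 10 muscle markers were lower, with a median of −0.97. There 25 of 38 members were also lower, with a median of −0.10. The markers stand for 1 tissue, so 10 of 10 is not a count of independent results. Their summed signal was 5611 to 121924 in knockout vehicle, 2775 to 552184 in knockout estrogen, 12592 to 379171 in wild-type vehicle and 7144 to 163536 in wild-type estrogen mice. By replicate number, the knockout sum was higher after estrogen in replicates 1, 2 and 3. It was lower in replicate 4, with 5611 under vehicle and 2775 after estrogen. In replicates 3 and 4, where the muscle sums were 2775 to 26419 on all 8 arrays, the member median after estrogen in the knockout was −0.87, and in replicates 1 and 2, where they were 67208 to 552184, it was −0.27. The replicate sets also differ in many other genes, so these 2 medians do not isolate muscle. The part of muscle in the member values was not tested.

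Further probe sets of the members were read as a check. Of 19 further probe sets for 13 members, 14 lay above the level of the filter, and all 14 were lower after estrogen in the knockout, with a median of −0.95; 13 of them were higher in the knockout than in wild type under vehicle, with a median of 0.88. These probe sets measure the same arrays, so they are no further replicates. For Rsad2, whose chosen probe set had the highest signal, the other 2 probe sets differed by −1.06 ± 0.32 and −1.06 ± 0.41 in the knockout, against −0.29 ± 0.28. For Dhx58 one further probe set differed by −0.07 ± 0.29, and for Eif2ak2 the further probe sets differed by −1.04 ± 0.61 and −0.62 ± 0.32, so probe sets of 1 gene disagreed in size. Between genotypes under vehicle that Dhx58 probe set differed by −0.11 ± 0.29, against 0.87 ± 0.44 for the chosen probe set, so there the sign disagreed. The 3 further Tap1 probe sets were under that level, with differences of 0.53 ± 0.65, 0.30 ± 0.61 and 0.01 ± 0.37.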

How the data were processed

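Total RNA of 16 mice was hybridised to 1 Affymetrix array each. The authors deposited 1 linear intensity for each probe set, computed with GCOS per the submitters' processing notes, which give no version here. These values were used as deposited. Of 45101 probe sets, 34945 carried 1 gene symbol in the platform annotation, 932 carried several and named no gene, and 34741 matched RefSeq by Entrez identifier. Where a gene had several probe sets the one of highest mean signal stood for it, and the lowest 30% of 18193 genes were left out. Differences are on the log2(signal + 16) scale, which understates those of low genes. A mean per group was fitted over all arrays (12 residual degrees of freedom) with limma 3.58.1 in R 4.3.3, with a variance trend, and two-sided p-values were Benjamini-Hochberg adjusted over 12736 genes at 0.05. The fit was tested on simulated data.

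The members and lists were chosen with earlier results of these data known. All members are named; values on every array are given for the 6 type I antiviral and 3 GTPase genes of smallest p in the knockout, and for all transcription factors, chemokines and antigen processing genes. Of other pathway lists at most the 3 genes of smallest p under 0.05 in any contrast are named. The replicates are separate mice without pooling, per the series design text. Same-numbered arrays of different groups had deviations from the group means that correlated at 0.19 to 0.60, with a median of 0.32. The number was used as a block by this check of the data and not by a label. Arrays of the other number of the same set correlated at a median of 0.37 and arrays of the other set at −0.67 to −0.10. The number thus tied arrays together no more closely than the replicate set did. The number of arrays limits the precision.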

Additional observations from a re-analysis of the deposited data

Results flagged for a closer look

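In groups of 4 arrays, 9 of 152 sets of member values (5.92%) held an array whose gap to its neighbour took more than 0.829 of the range, and chance gives about 1 in 20. In wild-type vehicle replicate 2, an array of high spike-in signal, Dhx58 (gap share 0.937, signal 109), Irf9 (0.909, signal 596), Parp14 (0.867, signal 433) and Psmb9 (0.836, signal 817) were lowest, and so was the mean over the 6 GTPases (0.848). Irf7 was highest in wild-type vehicle replicate 4 (0.865, signal 1281), and Cxcl10 was lowest in wild-type vehicle replicate 1 (0.886, signal 26.8). In wild-type estrogen replicate 3, Oasl1 (0.918, signal 252) and Gbp2 (0.855, signal 161) were lowest. Cxcl9 was lowest in knockout estrogen replicate 4 (0.841, signal 12.6). The cause was not tested.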

How the results depend on the processing

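Under all 13 alternatives and with each of 16 arrays left out in turn, 0 members passed the adjusted p in any of the 5 contrasts. With the replicate number as a block, 0 genes and 0 members passed in each contrast, and the block changed no call; the smallest adjusted p of a member in the knockout was then 0.608. For estrogen in the knockout, 1 gene of all those tested passed with quantile normalization, with the lowest 50% left out, with the mean of all probe sets, with array quality weights or with a term for the replicate set, 2 passed once the 3 arrays with high spike-in were left out, and 0 to 3 with 1 array left out. For estrogen in wild type, 5 passed with array quality weights and 5 with a term for the replicate set, and 0 to 3 with 1 array left out. For knockout against wild type, 1 gene passed under vehicle with array quality weights, and 0 to 2 under estrogen with 1 array left out. For the difference between responses, 5 genes passed in replicates 1 and 2 alone. The member median moved from −0.62 to −0.27 in the knockout in replicates 1 and 2 alone, from −0.10 to −0.39 in wild type in replicates 3 and 4 alone, and from −0.59 to −0.28 for the difference between responses once those 3 arrays were left out. With 1 array left out it was −0.73 to −0.49 in the knockout, 0.44 to 0.64 for the genotypes under vehicle and −0.72 to −0.45 for the difference between responses. The wild-type median was −0.17 to −0.003 in these fits, and that of the genotypes under estrogen −0.08 to 0.14. In replicates 1 and 2 alone the knockout difference turned to 0.014 for Gbp2 and to 0.28 for Ifit3. Of all member values under alternatives, 53 changed sign by at least 1 standard error with p above 0.05 in both fits, and 5430 changed sign by less or not at all. The cause was not tested. Signals of Cxcl9, Cxcl10 and Mx2 lie close to the low end of the arrays, which limits their differences.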
